A study of Mus musculus with 16 samples.

Results

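The translation initiation factor genes of Hepa1-6 cells, a mouse hepatoma line, were followed at the level of mRNA and of ribosome footprints. Members were all genes whose symbol starts with Eif and a digit from 1 to 6, without the eIF2 kinases (symbols starting with Eif2ak), and each gene was represented by its transcript with the largest summed count. The rule gave 51 of the 22392 genes in the table, namely 4 genes of eIF2, 5 of eIF2B, 14 of eIF3, 16 of eIF4 and 12 other factors. WT cells were compared with 3 clones (KO1, KO2 and KO3) in which exon 5 of Eef1d had been deleted with Cas9. Eef1d encodes a subunit of the complex that recharges elongation factor eEF1A with GTP. KO1 and KO2 were made with the guide RNAs S1 and S4 and KO3 with S2 and S4, and each clone grew from 1 cell, so within a clone the deletion and the history of that cell cannot be told apart. Each line had 2 replicates, and RNA-seq and Ribo-seq of a replicate came from 1 lysate, which gives 16 libraries of cells in the same serum-containing medium without a drug treatment. All 3 clones were set against the same WT libraries, so their values stand side by side below and are not independent.

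The libraries were deep enough for nearly all members. RNA-seq libraries summed to between 24726706 and 30748268 counts and Ribo-seq libraries to between 2604223 and 11147904, with KO1 replicate 2 as the shallowest. Members took 1.43% to 1.57% of the RNA-seq counts and 1.45% to 1.57% of the footprints when each gene counted once. As a check of the labels, the Eef1d transcript with exon 5 held 116% of the count of the transcript without it in both WT RNA-seq libraries, and 89.8% to 92.6% in the clones. A read was counted on every transcript it fits, so both counts hold reads from shared exons. The counts in the clones are therefore not a measure of mRNA that keeps exon 5. Of 12 hepatocyte markers, 8 reached a level of 10 (counts per codon, scaled to sum to 1000000 per library) in their highest RNA-seq library. Apoh and Ahsg stayed under 1 in all of them. Their summed level ran from 476 to 1851 over the RNA-seq libraries, lowest in KO1 and highest in KO3. WT cells averaged 1256, and KO1, KO2 and KO3 averaged 478, 957 and 1801. Leukocyte markers summed to 2.17 to 7.48 and endothelial markers to 0.0343 to 1.04. The stellate cell and fibroblast list summed to at most 951, nearly all from Dcn (decorin), since Col1a1, Col3a1 and Pdgfrb were under 1, and cholangiocyte markers summed to 51.0 to 313 with Krt19 under 1. The part of these differences in the results below was not tested.

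Initiation brings the ribosome to the start codon of an mRNA. eIF2, a trimer loaded with GTP, delivers the initiator tRNA, and eIF2B, its exchange factor, reloads it after each round; phosphorylated eIF2 blocks eIF2B and lowers initiation in stress. eIF3 is a large assembly that holds the small subunit and links it to mRNA. eIF4E binds the cap, eIF4G is the scaffold, eIF4A unwinds RNA with the help of eIF4B and eIF4H, and the 4E-binding proteins compete with eIF4G for eIF4E under control of mTOR. eIF1 and eIF1A keep the scanning ribosome from stopping at wrong codons, eIF5 triggers GTP hydrolysis by eIF2, eIF5B joins the subunits, eIF6 keeps free large subunits apart, and eIF5A, named for initiation, mainly helps elongation at difficult peptide bonds.

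The start codons of these mRNAs are themselves of interest, because eIF1 and eIF5 act on their choice. Below are 9 bases before, the start codon in capitals and 6 bases after, 5′ to 3′, from the GRCm38 transcripts of GENCODE vM21 for the chosen transcripts. They are shown because Eif1, Eif1b and Eif3b lack both favoured bases, Eif4g2 starts at a codon other than ATG, and Eif5 and Eif2a are among the members that the comparisons turn on.
Eif1: tcgtatcgtATGtccgct
Eif1b: tagtgtcgcATGtccact
Eif3b: cgcgggcccATGcaggac
Eif4g2: gccgccaaaGTGgagagt
Eif5: taagccaaaATGtctgtc
Eif2a: cgggacaagATGgcgccg
The start codon of Eif1 begins at position 100320130 of chromosome 11 (plus strand, exon 1 of 4), that of Eif4g2 at 111081547 of chromosome 7 (minus strand, exon 2 of 22), that of Eif5 at 111539616 of chromosome 12 (plus strand, exon 2 of 11) and that of Eif2a at 58526059 of chromosome 3 (plus strand, exon 1 of 14). Counting the first base of the codon as 1, a purine stood at position -3 in 42 of 48 measured members with a usable leader (87.5%), beside 86.6% of 11341 genes. G stood at position 4 in 24 members (50%), beside 53.7% of genes. Members without either were 4 (8.3%, against 6.2% of genes), which are Eif1, Eif1a, Eif1b and Eif3b. In WT cells, TE (defined below) had a median of 1.04 over 6 members without the purine and 1.00 over 40 with it. The palindrome CACGTG (an E-box, equal on both strands) occurred in 23.5% of 51 RefSeq promoters of 39 members, which run from 250 bases before to 50 after the transcript start on GRCm38.p6, and in 7.15% of all 32851 promoters. The 12 member promoters with it came from 10 genes, so some genes count more than once. Among them was Eif5a2, which had no counts here. The difference between these shares was not tested. The letters TGATGCAAT, searched on both strands as the core of amino acid response elements, occurred in 0 of the 51 and in 0.19% of all promoters. At so low a share, 0 of 51 does not set the members apart.

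In WT cells the factors differed widely in level (counts per codon, scaled to sum to 1000000 per library, mean ± SD, n = 2). Eif5a was the highest, at 1931 in RNA-seq and 2584 in Ribo-seq. The helicase gene Eif4a1 followed with 1170 and 1470, then Eif1 with an RNA level of 911 ± 7.21 and a footprint level of 733 ± 74.5, and Eif3h with 744 and 608. The eIF2B genes had the lowest group median, and their RNA levels ran from 20.1 for Eif2b4 to 80.5 for Eif2b1, with a median of 41.9. Single genes below them were Eif4e3 (14.3) and Eif4ebp3 (12.5), and Eif2s3y, Eif4e1b and Eif5a2 had an RNA level of 0. The other eIF2 genes lay above those of eIF2B. Eif2s2 (the beta subunit) was at 315, Eif2s3x (gamma) at 177 and Eif2s1 (alpha) at 118 in RNA-seq. In footprints, Eif2s1 stood at 3.94 ± 0.470 times Eif2b5, the catalytic subunit of eIF2B. The median member was at 150 in RNA-seq and 137 in Ribo-seq.

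**Figure D1:**
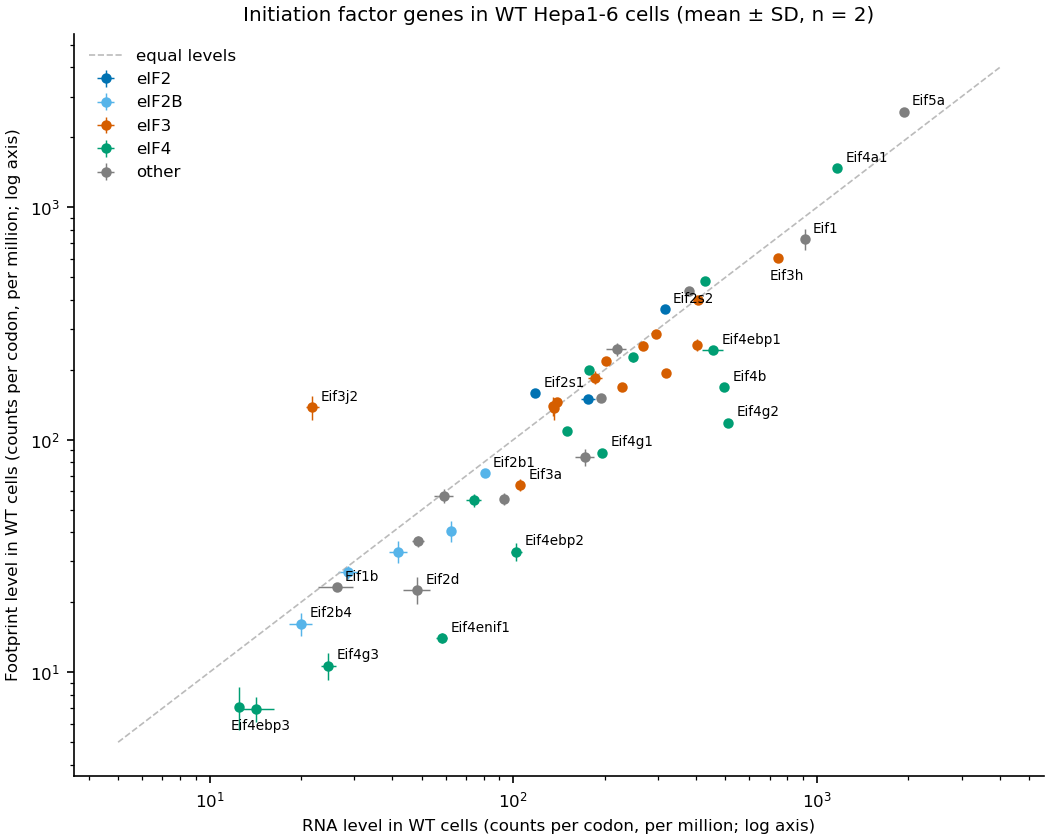
Level of each of the 48 measured members in WT cells in RNA-seq (x) and Ribo-seq (y), in counts per codon scaled to sum to 1000000 per library, on log axes, with means of 2 replicates as points, SD as bars, factor groups as colours and a dashed line at equal levels. Eif5a and Eif4a1 stand at the top, Eif3j2 far above the line, and Eif4g2, Eif4enif1 and Eif4b below it.

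Subunits of 1 complex were not made at equal footprint levels. Among the eIF3 genes, footprints ran from 64.0 for Eif3a, which encodes the scaffold and largest subunit, to 608 for Eif3h, and the ratio of Eif3h to Eif3a was 9.51 ± 0.204. The other eIF3 subunits lay between them, such as Eif3g at 168, Eif3b at 257 and Eif3e at 401. In the cap-binding group, footprints of Eif4e (226) were 2.57 ± 0.142 times those of Eif4g1 (88.1), and those of Eif4a1 16.7 ± 0.582 times. The second helicase gene, Eif4a2, was at 54.9 and the second scaffold gene, Eif4g3, at 10.7. Eif4ebp1, the main 4E-binding protein gene of these cells, had 1.08 ± 0.0873 times the footprints per codon of Eif4e. Eif4e1b (an oocyte form of eIF4E) and Eif5a2 had 0 counts in all 16 libraries, which allows at most 3 counts per library, a floor that covers counting error only.

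Footprints relative to RNA were lowest in the eIF4 group and highest in eIF2. TE was taken as footprint CPM over RNA CPM, where CPM is counts per 1000000 with TMM scaling within each assay, so 1 means an equal share of both. Its median in WT cells was 1.42 for 3 eIF2 genes, 1.20 for 14 eIF3 genes, 0.997 for eIF2B, 0.989 for the other factors and 0.657 for 15 eIF4 genes, beside 0.874 over 11772 genes. Eif2s1 (1.65 ± 0.0554) and Eif5a (1.64 ± 0.0199) were the highest apart from Eif3j2. The lowest were Eif4g2, a scaffold relative that lacks the eIF4E site (0.285 ± 0.00821), and Eif4enif1, the eIF4E transporter (0.296 ± 0.00538). Eif4ebp2 (0.398 ± 0.0626) and Eif4b (0.419 ± 0.0354) were next. These 4 genes lay in the lowest 15.6% of all genes. The value of 7.75 for Eif3j2 cannot be read as translation, because 98.95% of the 30-base windows of its coding sequence are also in Eif3j1.

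KO1 had the largest single RNA changes, and 8 of its 17 falls were eIF3 subunits. Of 48 members tested for RNA, 7 rose and 17 fell, where 22% of all genes rose and 24.8% fell (edgeR's quasi-likelihood test, Benjamini-Hochberg adjusted p under 0.05 over all genes). Eif3c, a core subunit, had RNA at 767 and 777 CPM in WT cells and at 374 and 395 in KO1, so the groups did not overlap. Its log2 change was -1.01 ± 0.0456 (SE, adjusted p = 1.66e-29). Falls of 0.56 to 0.70 on the log2 scale followed for Eif4g2 (-0.70 ± 0.0401), Eif3d (-0.64 ± 0.0544), Eif1b (-0.60 ± 0.217) and Eif3l (-0.56 ± 0.0513), and Eif2b5 was at -0.54 ± 0.0663. Eif4g2 went from 1471 and 1469 CPM to 888 and 920.

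The rises in KO1 were smaller. Eif3b, which carries the RNA-binding core of eIF3, went from 1027 CPM in both WT replicates to 1407 and 1394 (log2 change 0.44 ± 0.0396, adjusted p = 3.02e-15). Eif1ax (0.32), Eif4enif1 (0.32), Eif3a (0.31), Eif2b1 (0.21) and Eif2s3x (0.20) also rose. Together these left 24 members without a call. The median change of the members was -0.07, beside 0.00 for all genes.

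**Figure D2:**
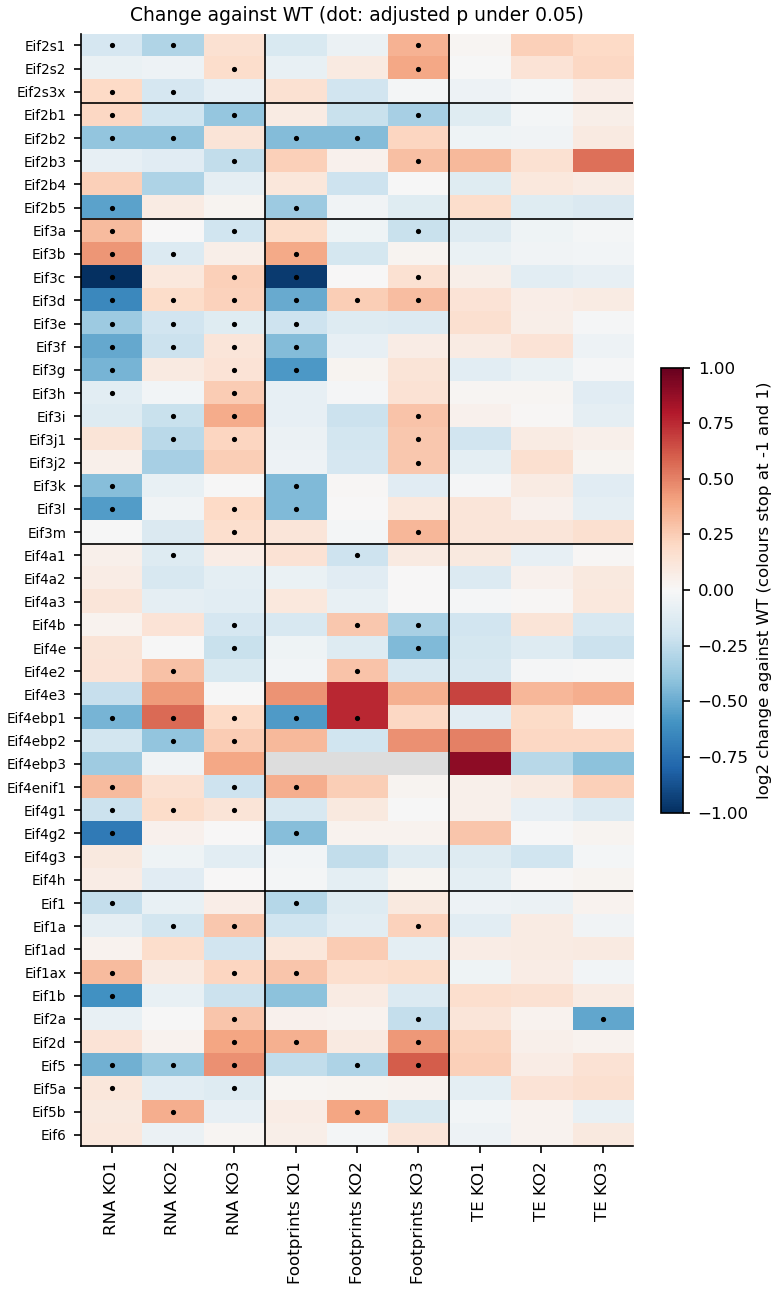
Log2 change against WT of the 48 members tested for RNA (rows, by factor group) in RNA, footprints and TE of each clone (columns), red for higher and blue for lower, with dots at an adjusted p under 0.05 and grey for a gene below the filter. The Eif3c row is the darkest in KO1, and the only dot under TE is Eif2a in KO3.

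In KO2 the changes were fewer and led by a rise of the 4E-binding protein gene Eif4ebp1. RNA rose for 5 members and fell for 12 of 48, where 11.7% of all genes rose and 8.68% fell. Eif4ebp1 had 167 and 149 CPM in WT cells and 240 and 222 in KO2 (0.56 ± 0.0662, adjusted p = 1.69e-06), well clear of WT. Eif5b (0.36), Eif4e2 (0.29, a cap-binding repressor), Eif3d (0.18) and Eif4g1 (0.18) also rose. Eif4ebp2 fell by 0.40 on the log2 scale, Eif2b2 by 0.39, Eif5 by 0.38, Eif2s1 by 0.30, Eif3i by 0.22 and Eif3j1, whose reads are shared with Eif3j2, by 0.27. The counts of eIF3 genes include both of that pair. The number of calls rested on the WT libraries: 8 members were called without WT replicate 1 and 3 without WT replicate 2.

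In KO3, rises outnumbered falls. RNA rose for 18 members and fell for 8, where 23.1% of all genes rose and 22.4% fell. Eif5 rose from 245 and 219 CPM to 325 and 309 (0.46 ± 0.0560, adjusted p = 2.86e-11), above both WT replicates. Eif2d, a factor that can place tRNA without GTP (0.40), Eif3i (0.37), Eif2a (0.28), Eif1a (0.27) and Eif3h (0.26) rose too. The falls were Eif2b1 (-0.39), Eif2b3 (-0.25), Eif4e (-0.22), Eif4enif1 (-0.21), Eif3a (-0.20) and Eif4b (-0.17) among the 6 largest. Without WT replicate 1, 17 members were called, and without WT replicate 2, 13.

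Footprints followed the RNA in sign for most called members. In KO1, 4 members rose and 12 fell of 47 tested, where 12.3% of genes rose and 14.7% fell, in KO2 5 rose and 3 fell (6.66% and 5.02%), and in KO3 12 rose and 5 fell (15.5% in both directions). Of the members called in footprints, 15 of 16 were also called in RNA in KO1, all in the same direction, and 7 of 8 in KO2. In KO3, 15 of 17 were called in both, 13 of them in the same direction, while Eif2a and Eif2b3 went in opposite directions. The overlap of calls over all genes was not taken, so these counts are not shown to be particular to the members. Footprints of Eif3c fell in KO1 from 895 and 910.4 CPM to 455 and 482 (-0.96 ± 0.0691, adjusted p = 9.64e-16). Eif3g, Eif4ebp1, Eif3d, Eif3l and Eif3k fell there by 0.57, 0.57, 0.50, 0.44 and 0.44 on the log2 scale, and Eif3b (0.38), Eif4enif1 (0.37), Eif2d (0.36) and Eif1ax (0.28) rose. Without KO1 replicate 1, which leaves the shallow library, 10 members were called in KO1. With a replicate block, footprints of Eif3a, Eif4a1, Eif4b, Eif4g1 and Eif5 in KO1, Eif2s3x, Eif3b and Eif3i in KO2, and Eif3e, Eif3h and Eif4ebp1 in KO3 passed as well.

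In KO2, footprints of Eif4ebp1 went from 108 and 98.9 CPM to 179 and 170.3 (0.76 ± 0.0860, adjusted p = 1.19e-07). Eif5b (0.39), Eif4e2 (0.29), Eif4b (0.27) and Eif3d (0.25) rose, and Eif2b2 (-0.43), Eif5 (-0.31) and Eif4a1 (-0.21) fell. In place of 8, there were 5 calls without WT replicate 1, 4 without WT replicate 2 and 2 without KO2 replicate 1. In KO3, Eif5 went from 151 and 129 CPM to 215 and 214 (0.60, adjusted p = 1.25e-08), and Eif2d (0.43), Eif2s2 (0.38), Eif2s1 (0.35), Eif3m (0.33) and Eif3d (0.31) followed. Footprints fell in KO3 for Eif4e (-0.44), Eif2b1 (-0.33), Eif4b (-0.32), Eif2a (-0.24) and Eif3a (-0.22). Without WT replicate 2, 11 members were called in place of 17. DESeq2 called 9, 2 and 7 members for footprints in KO1, KO2 and KO3.

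The eIF3 subunits did not move as 1 block. eIF3 is built from an a, b, g, i set, a c, d, e, k, l set and an f, h, m set, with j bound loosely, and the subunits were put in these sets after their values were seen. In KO1, all 5 genes of the c, d, e, k, l set fell in RNA (-1.01 to -0.37) and in footprints (-0.96 to -0.21), where 24.8% and 14.7% of all genes fell. Relative to genes within 10 Mb (described below), RNA of Eif3k (0.04) and footprints of Eif3d (-0.13), Eif3k (0.08) and Eif3l (-0.05) had no call. In the a, b, g, i set, Eif3a and Eif3b rose in RNA, Eif3g fell and Eif3i was at -0.13 without a call. Eif3i was called under a replicate block and relative to genes within 10 Mb. Eif3f fell (-0.51), Eif3h fell slightly (-0.10, adjusted p = 0.0422) and Eif3m was at -0.00. The footprint ratio of Eif3b to Eif3c per codon was 1.01 ± 0.0161 in WT cells and 2.51 ± 0.265 in KO1, and 0.895 and 0.924 in KO2 and KO3. In KO3, by contrast, RNA of 9 of the 14 eIF3 genes rose and 2 fell, Eif3a and Eif3e, where 23.1% of all genes rose and 22.4% fell. Relative to genes within 10 Mb, the rises of Eif3g, Eif3j1, Eif3l and Eif3m and the fall of Eif3e lost their call in KO3. Eif3e had RNA changes of -0.37, -0.19 and -0.12 in KO1, KO2 and KO3.

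**Figure D3:**
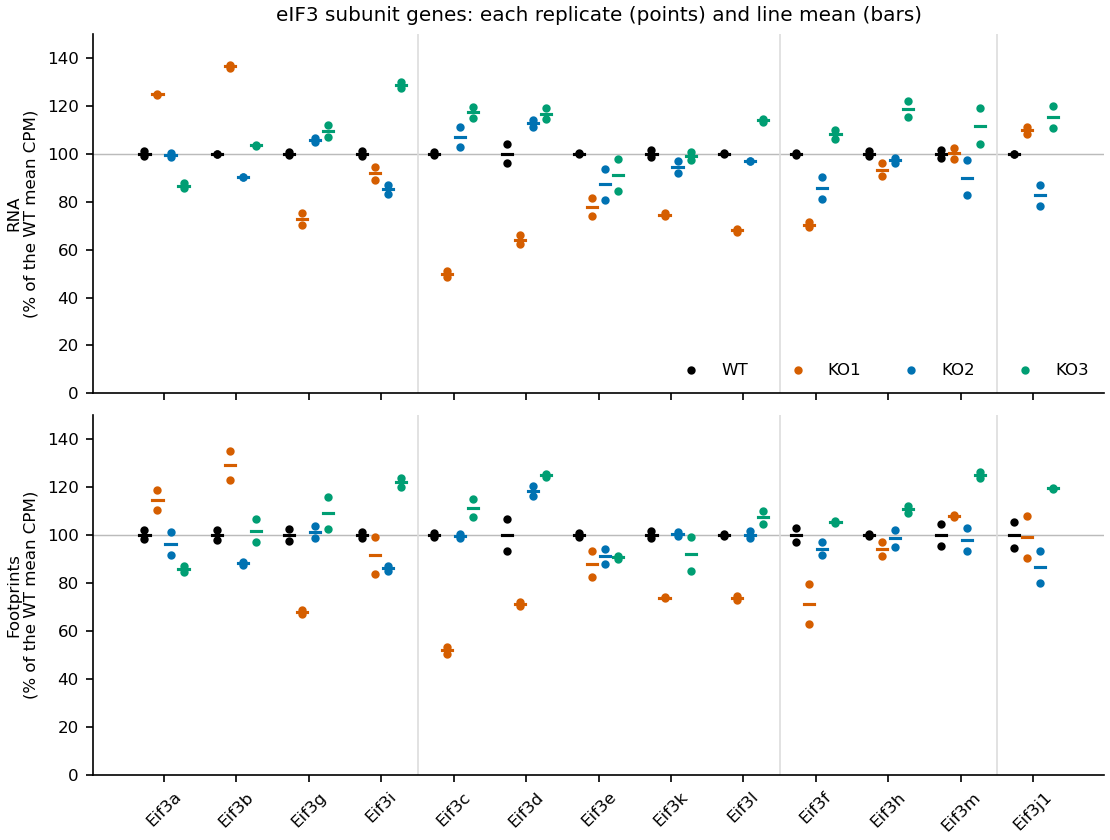
RNA (top) and footprints (bottom) of 13 eIF3 subunit genes in each replicate, as percent of the WT mean CPM, with line means as bars vertical lines between the sets, and Eif3j2 left out for its shared sequence. In KO1, Eif3c lies at 49.7% of WT in RNA and at 51.9% in footprints, while Eif3b lies at 136% and 129%.

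The genes of eIF2 and eIF2B changed by less than those of eIF3 in KO1, with a median absolute log2 change in RNA of 0.17 and 0.24 beside 0.40. In KO2 theirs were 0.17 and 0.20 beside 0.14 for eIF3, and in KO3 footprints the eIF2 value, 0.35, was the largest of the groups. In KO1, RNA of Eif2s3x rose, Eif2s1 fell by 0.17 on the log2 scale, and Eif2s2 was at -0.07 without a call. In KO3, footprints of Eif2s1 went from 198 and 185 CPM to 250.2 and 240.0, and those of Eif2s2 from 460 and 466 to 610.3 and 597, both above WT. Relative to genes within 10 Mb, Eif2s2 kept its footprint call in KO3 and Eif2s1 lost it. Of the eIF2B genes, Eif2b5 fell in KO1 alone by this test, and Eif2b2 fell in KO1 and KO2 (-0.40 and -0.39) with 0.13 and no call in KO3. Eif2b1 rose in KO1 (0.21) and fell in KO3. Eif2b4 was at 0.24, -0.31 and -0.09 without a call, though it passed in KO1 and KO2 with a replicate block. The Y-linked gamma gene Eif2s3y had at most 1 RNA count and 10 footprint counts in a library, and its longest stretch identical to Eif2s3x is 34 bases.

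Among the eIF4 genes, the balance of Eif4ebp1 and Eif4e differed between lines. Their footprint ratio per codon was 1.08 ± 0.0873 in WT cells, and in the clones KO1, KO2 and KO3 it was 0.725 ± 0.0878, 2.00 ± 0.0736 and 1.69 ± 0.0836. The replicates of each clone lay clear of those of WT cells. The ratio is a description of 2 replicates per line and was not tested. The scaffold gene Eif4g1 fell in KO1 (-0.22) and rose in KO2 and KO3 in RNA (0.18 and 0.13), and its relative Eif4g2 fell in KO1 alone by this test. Eif4a2, Eif4a3, Eif4e3, Eif4ebp3, Eif4g3 and Eif4h had no call for RNA in any clone by this test. With a replicate block, Eif4a3 passed in KO1. Relative to genes within 10 Mb, Eif4a2 passed in KO1 and KO2 and Eif4g3 in KO3.

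Few TE changes were called among the members, 1 over the 3 clones. In KO1, 0 of 49 members were called (5 at an unadjusted p under 0.05, as 7.08% of all genes were, and 0 with DESeq2), where 0.0428% of all genes rose and 0.0514% fell. In KO2, 0 were called (1 at an unadjusted p under 0.05, as 4.24% of all genes were, and 0 with DESeq2), beside 0.0173% and 0% of genes. In KO3, 1 member was called, beside 0.0432% of genes higher and 0.0605% lower, and 6 (12.2%) had an unadjusted p under 0.05, as 6.04% of all genes did. The mean TE change over the clones gave 0 members (1 at an unadjusted p under 0.05, as 3.76% of all genes were, and 0 with DESeq2), and 0% of genes in either direction. The median TE change of the members was -0.01, 0.04 and 0.03 in KO1, KO2 and KO3, and 0.02, 0.00 and -0.01 over all genes. The median SE of a member's TE change was 0.0982 to 0.107, and changes several times that size, such as that of Eif2b3 in KO3, were not called, so moderate TE changes could not be told from 0 at this depth. The 49 include Eif2s3y, whose counts are too few to read.

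The 1 call was Eif2a, a factor distinct from eIF2 that can deliver initiator tRNA by a route of its own. Its RNA was at 103 and 114 CPM in WT cells and at 138 and 124 in KO3, and its footprints at 126 and 133 in WT cells and at 111 and 108 in KO3. RNA was thus higher and footprints lower than in both WT replicates. TE was 1.22 and 1.17 in WT cells, and KO3 had the lowest values, 0.802 and 0.873. KO1 had 1.33 and 1.26, and KO2 1.14 and 1.31. The TE change in KO3 was -0.52 ± 0.113 (adjusted p = 0.0324). The direction held when any of the 4 lysates was left out (-0.59 to -0.44), but each time the call was lost, with adjusted p from 0.211 to 0.522, and DESeq2 gave an adjusted p of 0.455. The TE of Eif2a differed among the 3 clones (F test, adjusted p = 0.00136), and 1 of 49 members passed that test, where 0.957% of all genes did. That call was lost without KO3 replicate 1 (adjusted p = 0.105) and when all libraries were thinned to the smallest total (0.207).

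**Figure D4:**
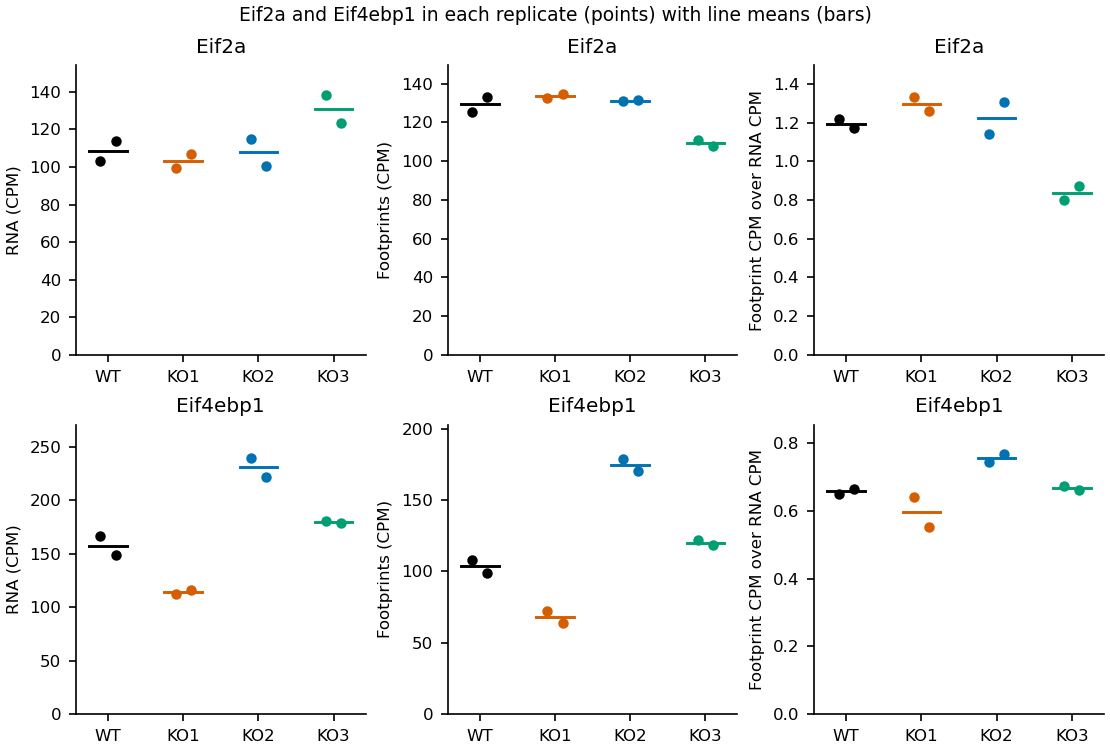
RNA CPM, footprint CPM and their ratio for Eif2a (top) and Eif4ebp1 (bottom) in the 2 replicates of each line, with line means as bars and axes from 0. For Eif2a the 2 KO3 replicates have the lowest footprints and ratios, and for Eif4ebp1 RNA and footprints are lowest in KO1 and highest in KO2.

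Other members with small p for TE did not pass the test. In KO1 these were Eif4g2 (0.28 ± 0.0824, adjusted p = 0.335), Eif4b (-0.19 ± 0.0832) and Eif4ebp2 (0.50 ± 0.232). TE of Eif4g2 was 0.291 and 0.280 in WT cells and 0.339 and 0.365 in KO1. With a term for the lysate that the assays share, Eif4g2 passed in KO1 (0.29, adjusted p = 0.0322, over a range of 0.0322 to 0.949 across the alternatives), where 0.659% of all genes passed. With that term 4 of 49 members (Eif2a, Eif4b, Eif4g2 and Eif5a) differed among the clones, where 3.22% of all genes did. In KO2 the smallest p belonged to Eif2s1 (0.24), Eif4ebp1 (0.19) and Eif5a (0.13), all with an adjusted p of 1. In KO3, Eif2b3 was at 0.55 ± 0.157 (adjusted p = 0.240) and Eif2s2 at 0.21 ± 0.0798.

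In RNA, the clones differed from each other for nearly all members, and in footprints for fewer. RNA differed among KO1, KO2 and KO3 for 45 of 48 members, where 74.1% of all genes did, and footprints for 34 of 48, where 59.6% did. All 14 eIF3 genes were among the 45. Eif5, which had the opposite sign in KO3, and Eif4ebp1, which fell in KO1 and rose in KO2, were among the 6 with the smallest p in both assays.

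Members tended to change in the direction of the genes around them, as 21 of 24, 15 of 17 and 23 of 26 called members did in KO1, KO2 and KO3. The matching share over all genes was not taken, so this is not shown to be particular to the members. For each member, the median log2 RNA change of the other genes within 10 Mb (37 to 234 genes) was taken, and across 48 members it correlated with the member's own change with a Pearson r of 0.768, 0.764 and 0.557 for KO1, KO2 and KO3 (a description across genes that share libraries and, in part, neighbourhoods). In KO1 the median change of all measured genes was -0.44 on chromosome 7, home of Eif3c, Eif3f, Eif3k and Eif4g2, -0.36 on chromosome 9 (Eif1b and Eif3g), -0.33 on chromosome 16 (Eif2b5, Eif4a2 and Eif4g1), and -0.31 on chromosome 15 beyond 70 Mb, where Eif3d and Eif3l lie. In KO2 it was 0.28 on chromosome 1 (Eif2d, Eif4e2 and Eif5b), 0.26 on chromosome 8 (Eif4ebp1), -0.25 on chromosome 10 (Eif4ebp2) and -0.20 on chromosome 12 (Eif2b2, Eif2s1 and Eif5). In KO3 it was 0.33 on chromosome 12, 0.32 on chromosome 18 (Eif1a), -0.32 on chromosome 6 (Eif4e3), 0.22 on chromosome 8 and 0.18 on chromosome 2. Eif4e3, a gene with few counts, was at -0.00 in KO3 and its neighbours were at -0.41. It had no call relative to genes within 10 Mb, so this gap is not shown to be a departure from its neighbours. The footprint medians of these chromosomes were of like size, and TE medians per chromosome stayed between -0.05 and 0.05. Gene copy number was not measured, and its part in these changes was not tested.

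**Figure D5:**
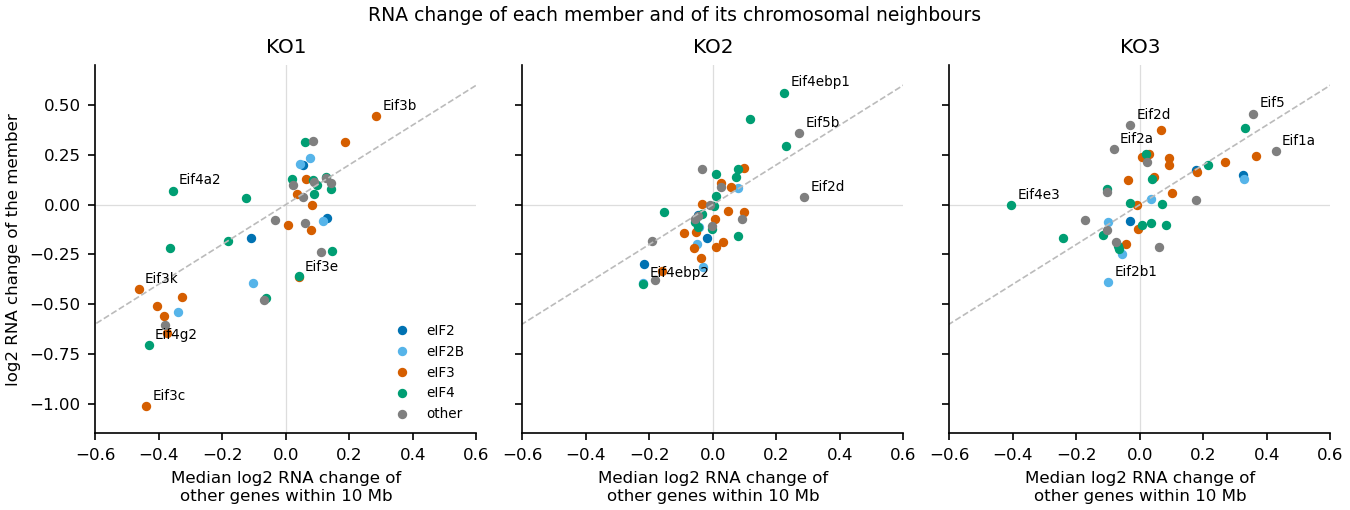
Log2 RNA change of each of 48 members (y) against the median log2 RNA change of other genes within 10 Mb (x), in KO1, KO2 and KO3, coloured by factor group, with a dashed line at equal values. Eif3c lies below the line in KO1 and Eif4ebp1 above it in KO2, while most members follow their neighbours.

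Measured against these neighbours, fewer members stood out. Relative to genes within 10 Mb, an alternative chosen after seeing the data, RNA of 22, 5 and 18 members changed in KO1, KO2 and KO3, where 37.8%, 12.3% and 36.5% of all genes did. Eif3c stayed at -0.57 in KO1, Eif3e at -0.41 and Eif4g2 at -0.27, whereas Eif3f, Eif3g and Eif3k lost their call (-0.10, -0.14 and 0.04). Eif4ebp1 was at -0.40 in KO1 and 0.34 in KO2. In KO2 only Eif3e, Eif3f, Eif4ebp1 and Eif3j1 (with the shared sequence) were called in both ways, and Eif5 and Eif5b were not. In KO3, Eif2a was at 0.36 and Eif2d at 0.43, and Eif5 at 0.10 without a call. Eif1a turned from a rise to -0.16 there (adjusted p = 0.0377), and Eif4b from a fall to 0.07 without a call. Eif4a2 was called in KO1 at 0.43, where its own RNA was at 0.07 without a call and its neighbours at -0.36.

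Partners and regulators of these factors rose in part and fell in part. Of 29 such genes, RNA rose for 8, 5 and 5 and fell for 6, 2 and 9 in KO1, KO2 and KO3, with medians of 0.06, -0.04 and -0.04. These counts stand beside 22%, 11.7% and 23.1% of all genes that rose and 24.8%, 8.68% and 22.4% that fell, and 0 of 29 changed in TE in any clone. The kinase gene Eif2ak3 (PERK) rose in KO1 and KO2 (0.37 in both) and fell in KO3 (-0.38), and Eif2ak1 rose in KO1 (0.77). Impact, which restrains the kinase GCN2, was at 0.78, -0.69 and -0.53, and all 3 were called. Rps6kb1, the mTOR target S6 kinase, was at -0.74 in KO3. For these partners and regulators, the changes were not set against those of genes within 10 Mb. Eif3e, Eif3f, Eif3h and Eif4b were taken as known to have a terminal oligopyrimidine tract, a list that need not hold all such members. These 4 had TE medians of 0.05, 0.09 and -0.08 in KO1, KO2 and KO3. The medians were -0.08, 0.12 and -0.04 for 84 ribosomal protein genes and -0.14, 0.07 and -0.16 for 8 other mRNAs taken to have the tract.

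Most similar gene pairs could be told apart. For Eif1 and Eif1b, Eif1a and Eif1ax, Eif4a1 and Eif4a2, Eif5a and Eif5a2, and Eif4ebp1 and Eif4ebp2, 0 of the 30-base windows of the second coding sequence occur in the first. For Eif2s3x and Eif2s3y 5 of 1390 do. Eif3j1 and Eif3j2 share a run of 784 bases, and their footprint counts were nearly equal (172 to 655 and 178 to 664 over the libraries), while RNA-seq gave 1023 to 1674 and 148 to 265. Their changes can therefore not be assigned to either gene.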

How the data were processed

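RNA-seq and Ribo-seq libraries of 4 lines, 2 replicates each, were used as deposited raw counts per transcript. The authors trimmed reads with fastp 0.21.0, aligned them with STAR 2.7.0a to mm10 with GENCODE vM23, and counted positions on coding sequences without the first and last 5 codons. The labels call the RNA polyA RNA and the protocol describes rRNA depletion, which was not settled.

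From these counts 1 transcript per gene was kept (67139 transcripts, 22392 genes). Each clone was compared with WT in edgeR 4.0.16 (R 4.3.3; quasi-likelihood test, TMM within assay, filterByExpr, Benjamini-Hochberg adjusted p under 0.05 over all genes). TE changes were the interaction of assay and line, and an F test asked whether clones differ. The study's methods call the footprint replicates biological, and the labels do not say whether they are separate cultures, so p-values measure the spread between these samples.

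Deviations of the 2 assays of a lysate correlated (r = 0.151 to 0.359, 2180 genes). Equal replicate numbers across lines are not stated to share a batch, but footprint deviations correlated in every pair of lines (r = 0.160 to 0.248). Alternatives were other size factors, low-count filters, all transcripts, a replicate block, a lysate term, 1 fit for all lines, DESeq2 1.42.0, thinning and leaving out each replicate. The fits were tested on simulated data.

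Members and lists were chosen with earlier results of these data known. Named genes were up to 12 called members per clone and assay (beyond that the 6 largest rises and 6 largest falls), called members and the 3 smallest p for TE, the 6 smallest p for differences among clones, and levels by factor group. Others named were chosen after their values were seen.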

Additional observations from a re-analysis of the deposited data

Results flagged for a closer look

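The change against WT differed among the 3 clones (edgeR F test) for these members with the smallest adjusted p. In RNA they were Eif3c (1.65e-21), Eif4g2 (7.42e-17), Eif3d (8.63e-16), Eif5 (1.13e-15), Eif4ebp1 (4.56e-15) and Eif3l (6.52e-14). In footprints they were Eif3c (2.55e-18), Eif4ebp1 (2.67e-15), Eif5 (1.33e-13), Eif3d (3.47e-13), Eif3g (2.57e-09) and Eif4b (3.79e-09). In TE it was Eif2a (0.00136), whose TE fell in KO3 and had no call in KO1 and KO2.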

How the results depend on the processing

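Over the named genes, 951 values kept direction and side of the threshold, 133 lost the call, 2 gained one and 3 reversed. The reversals came relative to genes within 10 Mb, chosen after seeing the data: Eif3k footprints in KO1 (0.0753), Eif4b RNA in KO3 (0.0736) and Eif1a RNA in KO3 (-0.16). That alternative also gave 7, 2 and 10 footprint calls in KO1, KO2 and KO3 in place of 16, 8 and 17, 5 RNA calls in KO2 in place of 17, and 18 members with a footprint difference among clones in place of 34. DESeq2 gave 9, 2 and 7 footprint calls, 9 RNA calls in KO2, 0 TE calls in KO3 and 2 TE differences. Thinning gave 2 and 8 footprint calls in KO2 and KO3, 0 TE calls in KO3 and 0 TE differences. A single fit of all lines gave 0 TE calls in KO3, and no filter gave 2 TE differences, a median of -0.0757 for eIF4 footprints in KO2 and 0.17 for eIF2 footprints in KO3. The mean over all transcripts moved the median WT RNA level to 152. Leaving out 1 replicate gave 10 to 16 footprint calls in KO1, 3 to 19 RNA calls in KO2, 2 to 6 footprint calls in KO2, 13 to 26 RNA calls in KO3, 11 to 14 footprint calls in KO3, 0 TE calls in KO3 and 0 to 2 TE differences. The cause of these shifts was not tested.

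With the replicate block, RNA calls were 31, 20 and 27, footprint calls 21, 11 and 20, TE calls in KO1 1 and TE differences 3, and no member lost its call. For the replicate block, DESeq2, thinning, the single fit, the filters and left-out replicates, the share of all genes called was not taken. Gains and losses of calls under them are therefore not shown to be particular to the members. The members gained in RNA were Eif2b4, Eif3i, Eif3j1, Eif4a3, Eif4e, Eif4e2 and Eif6 in KO1, Eif2b4, Eif4b and Eif4enif1 in KO2, and Eif2s1 in KO3. The lysate term gave 1 TE call in KO1 and 4 TE differences. Equal replicate numbers correlated in footprints (r = 0.160 to 0.248) but not in every pair of lines in RNA (-0.0639 to 0.460).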
